A study of Mus musculus with 17 samples.

Results

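The genes described here are 44 protein-coding genes for nucleolar factors that build ribosomes, chosen by name, among 21887 protein-coding genes of the RefSeq annotation of mouse build GRCm38.p6. A gene was said to have a peak when a peak summit lay within 5 kb of its span. ChIP-seq, which sequences the DNA that an antibody pulls down with a bound protein, was used for 5 transcription factors in bone marrow-derived macrophages (C57BL/6 mice, L929-conditioned medium, day 7 of differentiation). The labels mark the MYC, IRF1, JUNB and CEBPB libraries as wild type and give no genotype for the STAT6 libraries. Treatments were interleukin 4 (IL4, 10 ng/ml), interferon gamma (IFNg, 100 ng/ml) and the pair of them (IFNg+IL4). MYC lists cover no treatment, IL4 for 2 h, IL4 for 4 h, IFNg+IL4 for 2 h and IFNg+IL4 for 4 h. STAT6 lists cover IL4 and IFNg+IL4, each for 2 h, and the lists of IRF1, JUNB and CEBPB cover no treatment, IFNg for 4 h and IFNg+IL4 for 4 h. Each of the 16 combinations was 1 library and 1 peak list, so there is no replicate check and no test of a difference between conditions. The number of mice behind a library is not given in the labels.

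Ribosomes are assembled in the nucleolus, where RNA polymerase I transcribes the ribosomal DNA into a long precursor. Small nucleolar ribonucleoproteins (snoRNPs) modify that precursor, and separate sets of assembly factors then fold and cut it into the small and the large subunit. MYC is a basic helix-loop-helix factor that binds DNA as a dimer with MAX, most tightly at the E-box CACGTG, and genes of this pathway are textbook targets of it. STAT6 is the factor switched on by the IL4 receptor, IRF1 is induced by interferon, JUNB is a subunit of AP-1, and CEBPB is a leucine zipper factor of myeloid cells.

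The lists differed in length and depth. The shortest was that of IRF1 without treatment (244 peaks) and the longest that of STAT6 with IL4 (24927), and the 5 MYC lists held 495 peaks without treatment, 13211 and 9645 after 2 h and 4 h of IL4, and 3034 and 3402 after 2 h and 4 h of IFNg+IL4. Depth relative to the input library, recovered from the peak values, ran from 0.329 to 1.55. The MYC libraries stood at 0.555, 0.573, 0.876, 0.329 and 0.368 in the same order, so both IFNg+IL4 libraries were shallower than the others. Of 15 macrophage identity genes, 13 had a JUNB peak and 10 a CEBPB peak in untreated cells. For 15 markers of other cell types the counts were 3 and 1, and for all genes the shares were 16.7% and 13.6%. The untreated IRF1 and MYC lists had a peak at 0 of 15 in both sets. Peak lists give no expression level. None of the 128 peaks of the input list that were used lay near the 44 genes.

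The canonical E-box was in 9 promoters of these genes, and in 5 of them its centre lay within 50 bp of the MYC summit. The annotation gave a transcription start and a promoter of 300 bases (250 before the start and 50 after) for 38 of the 44 genes, all except Npm1, Fbl, Nol6, Rrp12, Bop1 and Rrs1. CACGTG, searched on both strands, was in 9 of these 38 promoters (23.7%), in 8.91% of 17492 promoters and in 14.8% of the 5794 with a MYC summit within 1 kb of the start after 2 h of IL4. The 9 sites are shown because they are the only canonical E-boxes in these promoters, as 30 bases each, 5′ to 3′ on the strand of the gene, with CACGTG in capitals, from the RefSeq promoters of GRCm38.p6.
Ltv1, chr10:13193092-13193121, minus strand: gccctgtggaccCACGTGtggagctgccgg
Mybbp1a, chr11:72441347-72441376, plus strand: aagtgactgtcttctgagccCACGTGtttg
Wdr43, chr17:71616220-71616249, plus strand: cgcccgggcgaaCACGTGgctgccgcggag
Grwd1, chr7:45830740-45830769, minus strand: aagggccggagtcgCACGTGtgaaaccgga
Nle1, chr11:82908355-82908384, minus strand: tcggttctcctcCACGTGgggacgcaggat
Pes1, chr11:3963965-3963994, plus strand: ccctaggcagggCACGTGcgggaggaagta
Nop2, chr6:125131811-125131840, plus strand: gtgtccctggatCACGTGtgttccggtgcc
Tsr1, chr11:74898092-74898121, plus strand: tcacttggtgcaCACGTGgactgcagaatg
Imp4, chr1:34439696-34439725, plus strand: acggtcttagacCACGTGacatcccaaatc

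The centre of the E-box lay 3.5 bp from the summit of the strongest MYC peak after 2 h of IL4 in Ltv1, 12.5 bp in Mybbp1a, 13.5 bp in Wdr43, 14.5 bp in Grwd1 and 27.5 bp in Nle1. The distance was 50.5 bp in Pes1, 92.5 bp in Nop2, 117.5 bp in Tsr1 and 323.5 bp in Imp4. In 7 of the 9 promoters the E-box began downstream of the start. The variant E-box CACGCG was in 11 of 38 promoters (28.9%), in 13.7% of all promoters and in 25.9% of those with a MYC summit, and 18 of 38 (47.4%) held either motif, against 20.8% and 37.0%. Beside MYC-occupied promoters at large, the share with CACGTG differed more than the share with the variant. These shares rest on only 9 and 11 promoters, the difference was not tested, and the promoters were not matched for peak strength.
Of the variant sites, 5 had their centre within 50 bp of the summit, and they are shown in the same way because they lie nearest the summit in promoters that lack CACGTG, with the variant in capitals on whichever strand it lies (Nhp2 holds its reverse complement).
Noc2l, chr4:156236015-156236044, plus strand: ggaagtgcggcgCACGCGgctgggcgcgcc
Nip7, chr8:107056824-107056853, plus strand: aggctagagagaCACGCGttcgtggacccc
Ddx21, chr10:62602249-62602278, minus strand: tgtcgccctctctcctagCACGCGgttgag
Nop16, chr13:54590029-54590058, minus strand: ggagactattaaCACGCGgctctgagagcg
Nhp2, chr11:51619764-51619793, plus strand: ggaggcggcggcCGCGTGgttcctctatgc

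These distances ran from 2.5 bp in Noc2l through 5.5 bp in Nip7, 10.5 bp in Ddx21 and 11.5 bp in Nop16 to 33.5 bp in Nhp2. In the other 6 promoters with the variant, its nearest copy lay 85.5 bp (Ppan) to 668.5 bp (Bysl) from the summit. Strength overlapped between promoters with and without CACGTG. At the strongest MYC site of each gene after 2 h of IL4 the median was 75.1 reads per unit of input depth in the 9 genes with CACGTG (48.9 to 169) and 82.0 in the 29 without it (24.4 to 246). Ranked by −log10 p, the 2 strongest genes without CACGTG in the promoter were Ncl and Gar1 (by reads, Gnl3 at 161 stood just above Gar1 at 159), and the 130 bases upstream of their starts hold neither motif.
Ncl, chr1:86359456-86359585, minus strand: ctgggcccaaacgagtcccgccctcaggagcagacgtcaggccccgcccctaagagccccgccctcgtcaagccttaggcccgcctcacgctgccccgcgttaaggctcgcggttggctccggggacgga
Gar1, chr3:129831397-129831526, minus strand: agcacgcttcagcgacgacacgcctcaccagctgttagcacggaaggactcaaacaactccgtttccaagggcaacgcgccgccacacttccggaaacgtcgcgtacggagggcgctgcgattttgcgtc

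In both genes the MYC summit lay inside the gene, 665 bp downstream of the start in Ncl and 262 bp downstream in Gar1, outside the 300 bases searched. Motifs of the other factors were less frequent. The STAT6 motif, TTC and GAA with 4 bases of any kind between them, was in 5 of 38 promoters (13.2%, all promoters 7.37%). An interferon response motif, GAAA and GAAA with 2 bases of any kind between them, was in 1 of 38 (2.63%, all promoters 3.94%), and TGANTCA, the AP-1 motif, was in 0 of 38 (all promoters 8.12%). A match to a motif is a description of the letters and does not show binding.

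In each of the 4 treated MYC lists more of these genes had a peak than in any list of the other factors. In untreated cells 24 of the 44 genes had a MYC peak, when 2.94% of all protein-coding genes did. After IL4 all 44 had one at 2 h and at 4 h, against 41.7% and 35.3% of all genes. With IFNg added, 40 of 44 had a peak at 2 h (14.5% of all genes) and 44 of 44 at 4 h (15.7%). Only Noc3l, Nop14, Nop16 and Polr1c had none in the IFNg+IL4 list at 2 h. The untreated list placed 26 of its 495 peaks (5.25%) near these 44 genes.

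**Figure D1:**
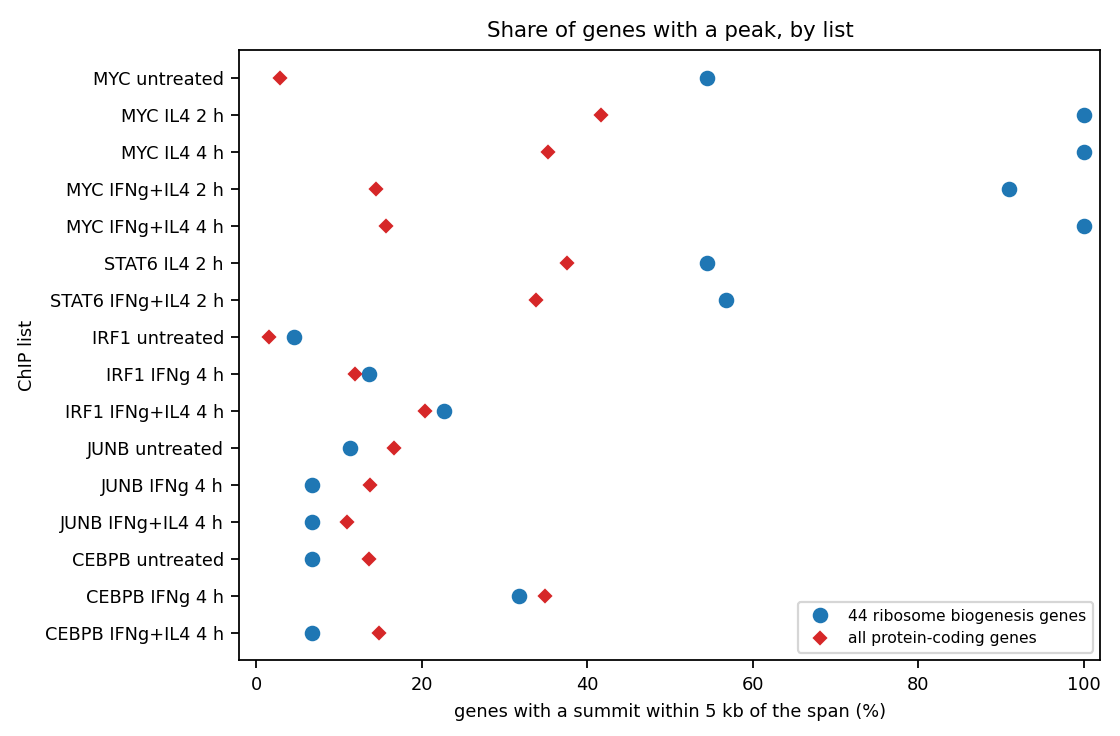
Each row is 1 ChIP list, and the horizontal axis gives the percentage of genes with a summit within 5 kb of the gene span; circles are the 44 ribosome biogenesis genes and diamonds all protein-coding genes. The circles lie far to the right of the diamonds in the 5 MYC rows (54.5% against 2.94% in untreated cells), less so in the STAT6 rows, and near or to the left of them for IRF1, JUNB and CEBPB.

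The counts in the treated MYC lists changed little at a common length of 3034 peaks, but fell when the lists were cut further. When the treated lists were cut to their 3034 strongest peaks, 42 (IL4, 2 h), 43 (IL4, 4 h), 40 (IFNg+IL4, 2 h) and 43 (IFNg+IL4, 4 h) of the 44 genes still had a peak, with all genes at 15.5%, 15.5%, 14.5% and 14.3%. In an alternative added after the data were seen, the reads of every MYC peak were scaled down to the depth of the shallowest MYC library. The counts were then 21 without treatment (all genes 2.49%), 44 and 43 after 2 h and 4 h of IL4 (34.9% and 21.7%) and 44 after 4 h of IFNg+IL4 (15.5%). Cut to 495 peaks, the length of the untreated list, the treated lists reached 25, 26, 26 and 26 of the 44 genes. The untreated list reached 24, so at equal length the untreated and treated counts differed little. The 50 strongest peaks of each list already reached 7 (untreated), 6, 7, 5 and 7 of the genes, when they reached 0.297% to 0.329% of all genes.

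**Figure D2:**
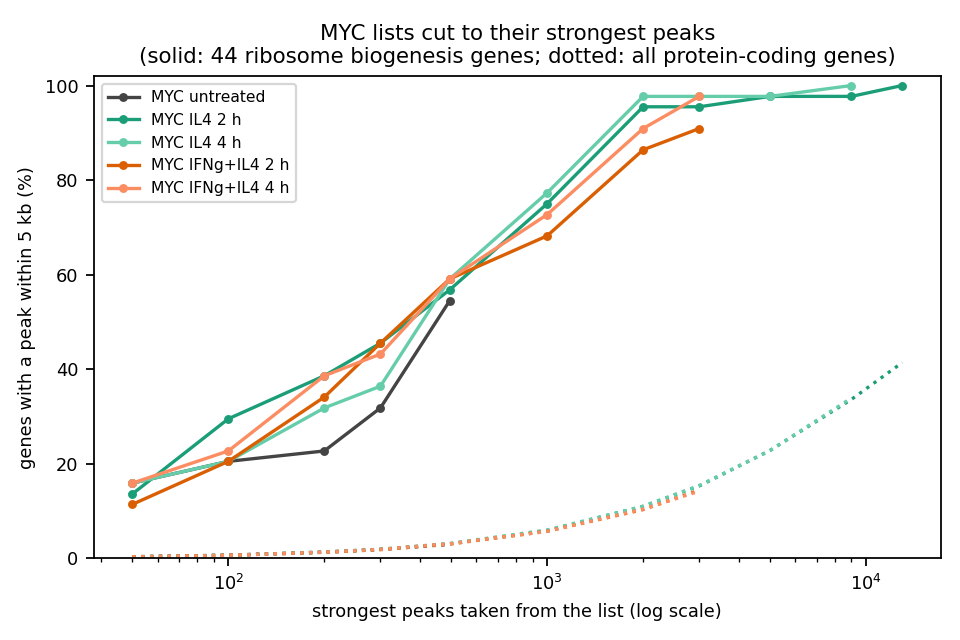
The horizontal axis, on a log scale, is the number of strongest peaks taken from each MYC list, and the vertical axis the percentage of genes with such a peak within 5 kb; solid lines with points are the 44 ribosome biogenesis genes and dotted lines all protein-coding genes. With 495 peaks taken, the 5 solid lines lie between 54.5% and 59.1% and the dotted lines between 2.94% and 3.14%.

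MYC summits at these genes lay at the start. For all 38 genes with an annotated start, the strongest MYC peak after IL4 was within 1 kb of it at both times. Among other genes with a MYC peak this held for 66% at 2 h and 67.1% at 4 h. Counted over genes, 21 of the 38 had a summit within 1 kb of the start in untreated cells (all genes 2.07%), 38 and 38 after 2 h and 4 h of IL4 (33.1% and 27.7%), and 34 and 38 after 2 h and 4 h of IFNg+IL4 (10.7% and 11.4%). The median distance was 51 bp after 2 h of IL4 and 45 bp after 4 h, and 272 and 264 bp in the other genes. Summits fell just downstream more often than in other genes, in 26 of 38 at 2 h (68.4%, other genes 52.9%), and 21 of 38 (55.3%) lay in the first 250 bases of the gene, against 18.7% of other genes. Polr1a was an exception under IFNg+IL4, where its strongest peaks lay 72.6 kb (2 h) and 72.5 kb (4 h) from the start, past the end of the gene. The peak at its start was weaker at 2 h (11 against 12 reads) and tied with the distal one at 4 h (11 reads each).

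**Figure D3:**
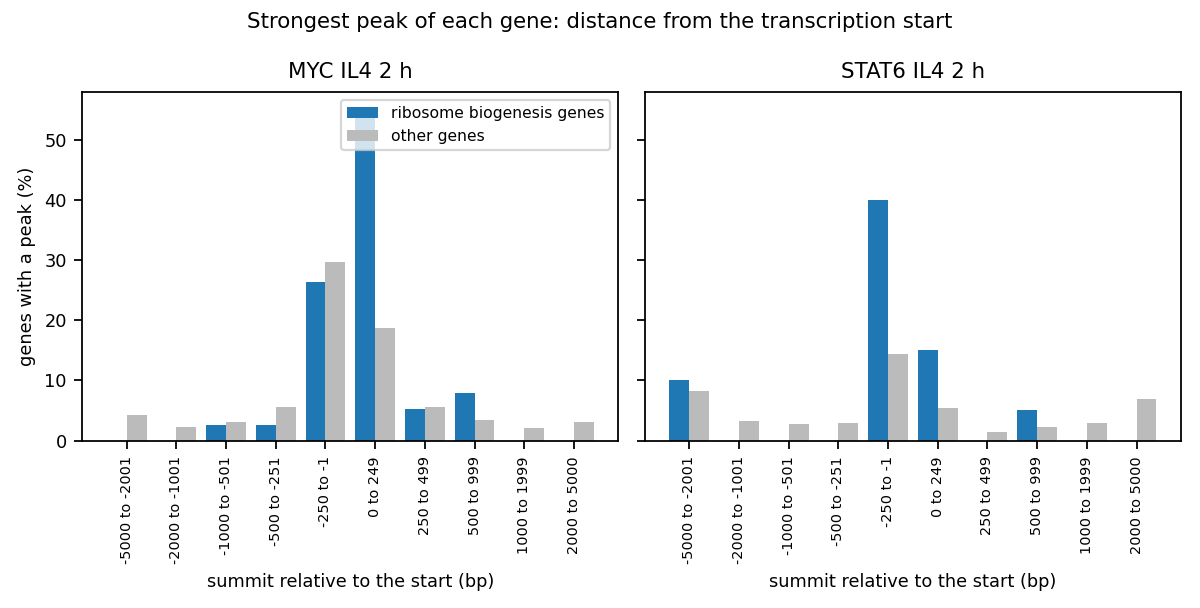
The bars give the percentage of genes with a peak whose strongest summit falls in each distance class from the transcription start, in bp along the direction of the gene, for MYC (left) and STAT6 (right) after 2 h of IL4; blue is the ribosome biogenesis genes and grey other genes, and genes with a summit farther away complete each 100%. The tallest blue bar lies just downstream of the start for MYC (55.3%) and just upstream for STAT6 (40.0% of 20 genes).

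To compare strength, the strongest MYC peak of each gene after 2 h of IL4 was taken as its lead site, which gave 44 distinct sites. The whole reads at each summit were recovered from the deposited fold enrichment and −log10 p, which the authors computed for each peak, and divided by the relative depth of that library. These are called depth-scaled reads below. The percentile of a peak is its rank by −log10 p within its own list. Since lead sites were chosen in the IL4 list at 2 h, their values there are favoured over the other lists.

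Lead sites were among the strongest MYC sites of the treated lists. The median depth-scaled reads were 26.1 in untreated cells (24 genes with a peak, 14.4 to 68.5), 81.2 after 2 h of IL4 (44 genes, 24.4 to 246), 49.1 after 4 h of IL4 (21.7 to 158), 53.2 after 2 h of IFNg+IL4 (40 genes, 30.4 to 173) and 51.6 after 4 h (44 genes, 19 to 157). Medians over all MYC peaks were 25.2, 26.2, 20.6, 33.4 and 32.6. In untreated cells the lead sites were thus like the average MYC peak, with a median percentile of 52.0 and 7 of 24 in the strongest 10%. In the treated lists the median percentiles were 97.2, 95.6, 90.5 and 88.0, and 39, 33, 20 and 20 lead sites were in the strongest 10%.

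**Figure D4:**
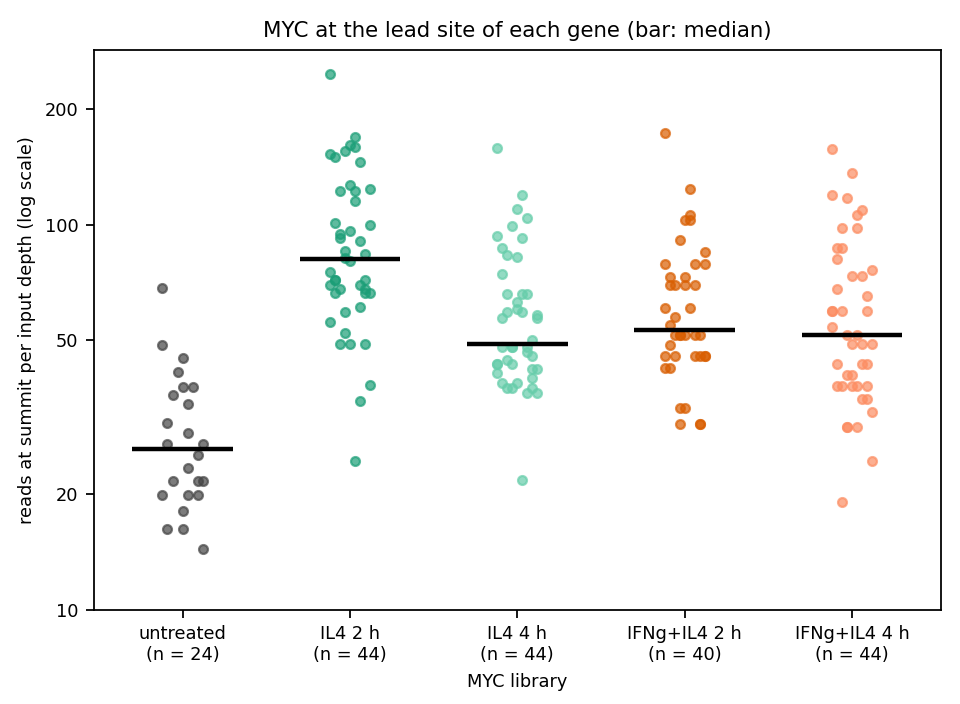
Each point is the lead MYC site of 1 gene, with the reads at the summit per unit of input depth on a log axis, in each of the 5 MYC libraries; bars are medians, and sites with no listed peak are not drawn. The untreated points (median 26.1) sit below most points of the treated libraries, and the IL4 library at 2 h is the highest (median 81.2).

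The nucleolar organisers and chaperones included the strongest site of both IL4 lists. Ncl encodes nucleolin, an abundant RNA-binding protein of the nucleolus, and its lead site had 68.5 depth-scaled reads without treatment, 246 and 158 after 2 h and 4 h of IL4, and 173 and 157 after 2 h and 4 h of IFNg+IL4. It was the strongest peak of all 13211 after 2 h of IL4 and of all 9645 after 4 h, and ranked 2 of 495 in untreated cells, 3 of 3034 and 5 of 3402. Ddx21, an RNA helicase linked to RNA polymerase I transcription and snoRNPs, had 41.5, 155, 99.3, 91.1 and 117 in the same order. Gnl3, the GTPase nucleostemin, had 45.1, 161, 110.0, 103 and 136. In all 3 genes untreated cells were lowest and 2 h of IL4 highest.
Nolc1, a chaperone of snoRNPs, had 37.9, 127, 82.2, 69.8 and 73.3 depth-scaled reads, and Mybbp1a, a nucleolar protein of ribosomal DNA transcription, had 36.1, 122, 83.3, 57.7 and 86.9. Npm1, the histone and ribosome chaperone nucleophosmin, was the only gene of this group of 6 without a peak in untreated cells, and had 101, 74.2, 69.8 and 81.5 in the treated lists.

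Among the 7 snoRNP genes, 3 (Nop56, Nop58 and Gar1) had a MYC peak in untreated cells. Nop58, a core protein of the box C/D snoRNPs that guide ribose methylation, had 48.7, 152, 93.6, 79.0 and 119 depth-scaled reads. Gar1, of the box H/ACA snoRNPs that guide pseudouridylation, had 28.8, 159, 92.5, 103 and 106, and ranked 8 of 13211 after 2 h of IL4. Nop56, the partner of Nop58, had 21.6, 99.5, 58.2, 79.0 and 48.9. All 3 were lowest in untreated cells, but the rise to 2 h of IL4 was 3.12-fold in Nop58 (95% interval 2.01 to 5.00) and 5.51-fold in Gar1 (3.22 to 10.0), and these intervals overlap.
Fbl, the methyltransferase fibrillarin, had no untreated peak and 94.3, 66.2, 69.8 and 97.8 in the treated lists, so that the highest value was after 4 h of IFNg+IL4. Dkc1, the pseudouridine synthase dyskerin, had 85.5 and 43.4 after IL4 and 30.4 and 29.9 after IFNg+IL4, the lowest value of any lead site listed at 2 h of IFNg+IL4, shared with other genes at 10 reads. Rrp9, specific to the U3 snoRNP, had 69.8, 46.8, 45.5 and 48.9, and Nhp2 had 90.8, 66.2, 69.8 and 73.3.

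Among the RNA polymerase I genes, Polr1a and Polr1c had sites below the median of the 44 genes after 2 h of IL4 (81.2), and Polr1b was close to it. Polr1b, the second-largest subunit, had 16.2 depth-scaled reads in untreated cells and 80.3, 60.5, 51.6 and 40.7 in the treated lists. Polr1a, the largest subunit, had no untreated peak and 52.4, 37.7, 33.4 and 29.9. Polr1c, a subunit shared with RNA polymerase III, had the weakest lead site after 2 h and 4 h of IL4 (24.4 and 21.7), none after 2 h of IFNg+IL4 and 29.9 after 4 h. Its IL4 values rest on 14 and 19 reads.

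Of the 12 genes of small subunit assembly, 5 had a MYC peak in untreated cells. Wdr43, a subunit of the complex that first folds the small subunit precursor, had 34.2, 169, 119, 124 and 97.8 depth-scaled reads and stood within the strongest 1% of all 4 treated lists. Heatr1 and Nol6, of the same precursor particle, had 21.6, 83.8, 40.0, 51.6 and 65.2, and 14.4, 38.4, 36.5, 45.5 and 24.4. Tsr1 and Noc4l, which act later and earlier in assembly, had 19.8, 69.8, 43.4, 42.5 and 59.7, and 19.8, 48.9, 37.7, 30.4 and 43.4. Nol6 was the only 1 of these 5 with its highest value outside the IL4 list at 2 h, and it rests there on 15 reads.
The 7 without an untreated peak (Nop14, Rrp12, Wdr75, Nob1, Bysl, Ltv1 and Imp4) lay between 48.9 and 82.0 after 2 h of IL4. Ltv1, an export factor of the small subunit, had 48.9, 38.8, 33.4 and 48.9 in the treated lists. Nop14, an early assembly factor, had 48.9 and 37.7 after IL4 and 19, from 7 reads, after 4 h of IFNg+IL4.

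Of the 16 genes of large subunit assembly, 10 had a MYC peak in untreated cells (62.5%, against 83.3% of the organisers and chaperones). Ppan, a factor of early large subunit particles, had 37.9, 145, 104, 79.0 and 109 depth-scaled reads. Nop2, a methyltransferase of the large subunit RNA, had 30.6, 150.0, 86.8, 72.9 and 86.9. Rrp1b had 19.8, 115, 66.2, 60.7 and 51.6. Bop1 and Wdr12 belong with Pes1 to the PeBoW complex, which is needed to process the large subunit RNA. Bop1 had 27.0, 124, 57.1, 85.0 and 76.0, Wdr12 had 16.2, 66.3, 38.8, 42.5 and 43.4, and Pes1, with no untreated peak, had 75.1, 43.4, 45.5 and 59.7.
All 3 partners were highest after 2 h of IL4, and the order of the other lists differed between them. Noc2l, which accompanies early large subunit particles, had 23.4, 122, 59.4, 106 and 38.0. From 2 h to 4 h of IFNg+IL4 its value changed 0.358-fold (95% interval 0.178 to 0.682). It was the only 1 of 40 genes whose interval for this comparison excluded 1, and the intervals were not adjusted for their number. Grwd1, a chaperone of a large subunit protein, had 27.0, 71.6, 48.0, 54.7 and 67.9. Nle1 had 21.6, 92.5, 59.4, 51.6 and 59.7. Rrs1, needed to build in the 5S RNA, had 25.2, 71.6, 50.2, 45.5 and 59.7, and Ebna1bp2 had 18.0, 96.0, 62.8, 72.9 and 38.0. In each of these 5 genes untreated cells were lowest and 2 h of IL4 highest.

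**Figure D5:**
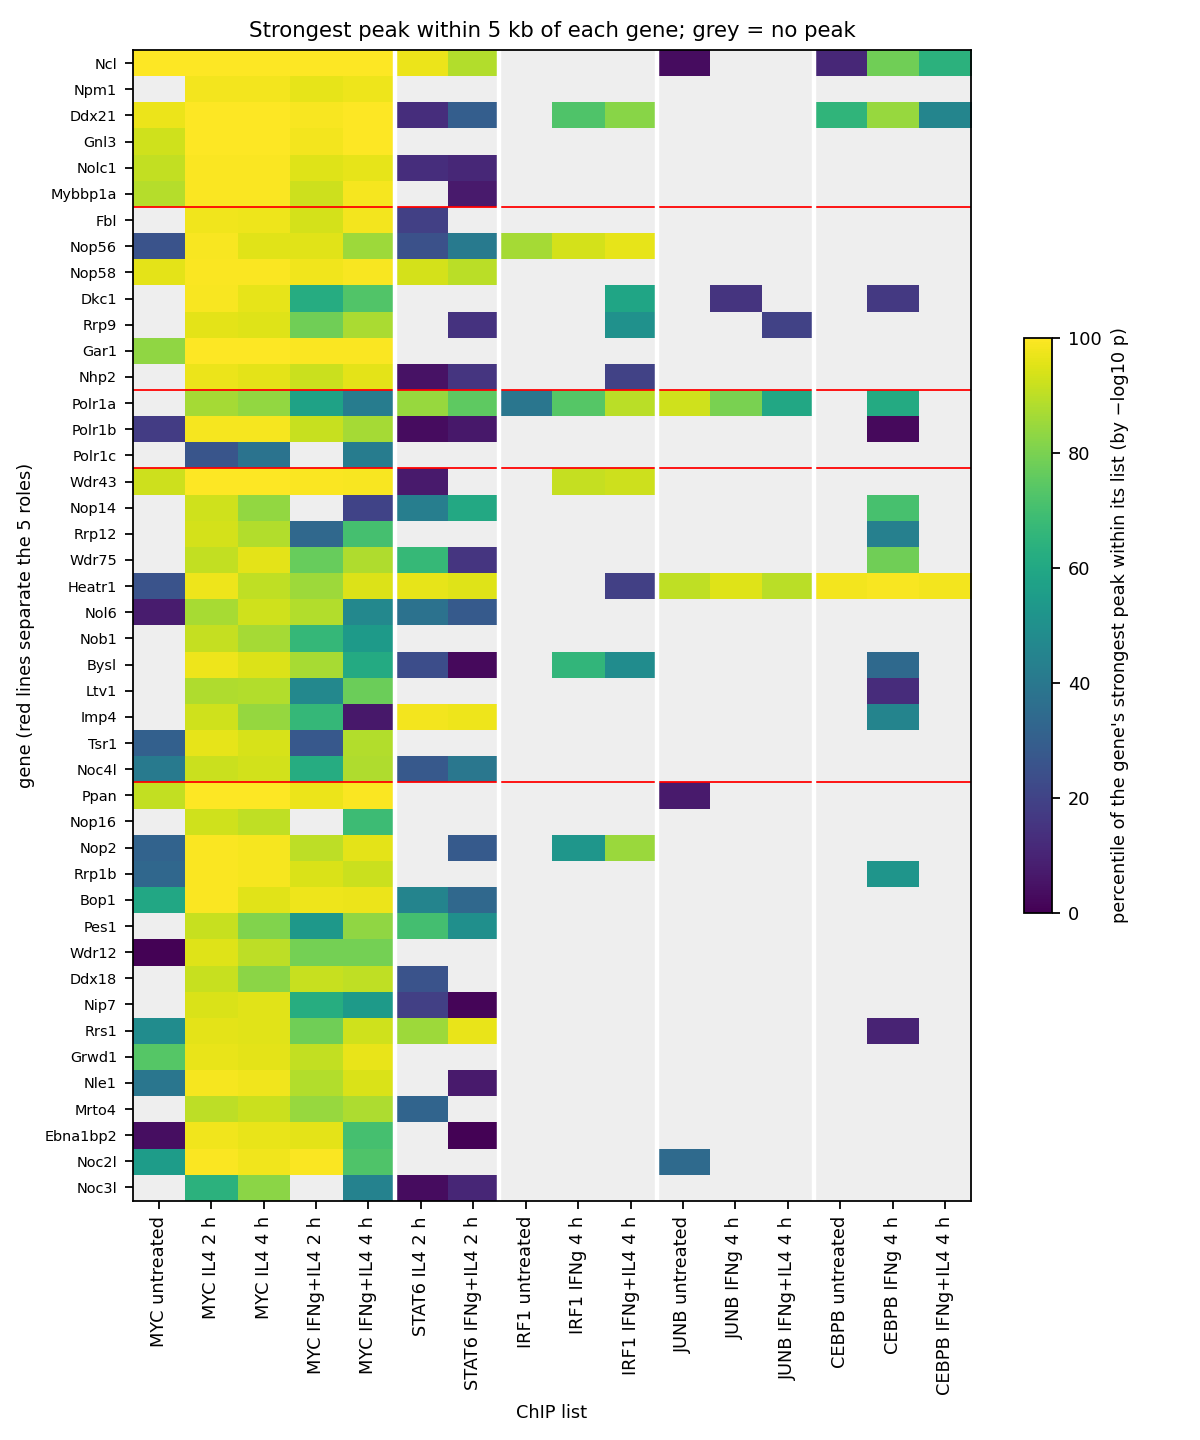
Rows are the 44 genes, with red lines between the 5 roles, and columns the 16 ChIP lists; colour is the percentile of the gene's strongest peak within its list by −log10 p, from dark (weakest) to yellow (strongest), and grey means no peak. The 4 treated MYC columns are filled except for 4 genes after 2 h of IFNg+IL4, while most of the IRF1, JUNB and CEBPB columns are grey.

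Between conditions the lead sites moved together. From untreated cells to 2 h of IL4, 24 of 24 lead sites rose, with a median ratio of depth-scaled reads of 3.85 (Noc4l 2.47 to Rrp1b 5.81) and a 95% counting interval above 1 in all 24. All 495 untreated MYC peaks had an overlapping peak after 2 h of IL4, and their median ratio was 3.35. The rise was therefore shared with untreated MYC peaks at large. Genes with an untreated peak were also the stronger ones after 2 h of IL4, with a median of 118 (38.4 to 246) against 67.2 (24.4 to 101) in the 20 without, and these ranges overlap.

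From 2 h to 4 h of IL4, 43 of 44 lead sites had a lower value, with a median ratio of 0.670 and an interval below 1 in 23. Noc3l was the exception (1.05, interval 0.580 to 1.93). Over all 8333 overlapping peaks the median ratio was 0.704, and over the strongest 10% it was 0.654. With IFNg added at 2 h, 38 of 40 lead sites had a lower value than with IL4 alone, with a median ratio of 0.646 and an interval below 1 in 13, and the strongest 10% of all peaks stood at 0.637. Ncl was at 0.703 (0.508 to 0.963) and Dkc1 lowest at 0.355 (0.160 to 0.709). The ratio of Dkc1 compares different summits, 769 bp downstream of the start with IL4 and 259 bp downstream with IFNg+IL4. At 4 h the ratio of IFNg+IL4 to IL4 had a median of 1.02, with 24 genes above 1, 20 below and no interval that excluded 1. Over the strongest 10% of all peaks the ratio at 4 h had a median of 0.909, with 66.2% of them below 1, and over all 2970 overlapping peaks 1.04. The ratio at 2 h was thus close to that of the strongest 10%, and at 4 h the median of the lead sites was higher than theirs. The strongest 10% at 4 h were chosen in the IL4 list at 4 h, which favours their values there. The lead sites were not chosen in that list, so the medians at 4 h are not like for like. Sites with no listed peak after IFNg+IL4 do not enter these ratios. The 2 h comparisons share the IL4 list at 2 h, in which the sites were chosen.

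Peaks were also compared by whether they were kept. A peak counted as kept if it shared 1 bp or more with any peak of the list compared, and intervals are exact Clopper-Pearson 95% intervals that cover counting error only. Of 68 MYC peaks near these genes after 2 h of IL4, 45 were kept after 2 h of IFNg+IL4 (66.2%, 53.7 to 77.2%), against 20.8% of all 13211 peaks and 89.1% of the strongest 10%. With a reciprocal overlap of 50% required, the share near these genes fell to 36.8%. Among the 42 of these that were in the strongest 10% of the list, 40 were kept. At 4 h, 51 of 58 were kept (87.9%, 76.7 to 95%), against 30.8% of all peaks and 95.5% of the strongest 10%. From 2 h to 4 h of IL4, 54 of 68 were kept (79.4%), against 63.1% of all and 100% of the strongest 10%. From 2 h to 4 h of IFNg+IL4 it was 47 of 49 (95.9%), against 64.8% and 98.7%. In these comparisons the shares near these genes were thus above those of all peaks and below those of the strongest 10%. Not every comparison had this order. From 2 h of IL4 to untreated cells 25 of 68 were kept (36.8%), against 3.57% of all and 31.8% of the strongest 10%. From 4 h back to 2 h of IL4 it was 58 of 58 (100%), against 87.8% and 99.1%. Many peaks near these genes were not themselves in the strongest 10%. Those that were in it were kept in 36 of 36 at 4 h. From 2 h to 4 h they were kept in 42 of 42 with IL4 and in 22 of 22 with IFNg+IL4. Genes that had a MYC peak after 2 h of IL4 and none after 2 h of IFNg+IL4 numbered 4 of 44, against 27.3% of all genes. That 27.3% also counts genes with no peak in either list. Among genes with a peak after 2 h of IL4, 90.9% of the 44 and 34.6% of all such genes also had one after 2 h of IFNg+IL4.

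STAT6 peaks were also found near these genes, at a share above that of all genes, and mostly at weak sites where they lay on MYC peaks. With IL4, 24 of 44 had a STAT6 peak (37.6% of all genes), and with IFNg+IL4, 25 of 44 (33.8%). The IL4 list cut to the length of the IFNg+IL4 list gave 18 of 44 (33.2% of all genes), and a minimum −log10 q of 5 gave 20 (34.8%) and 17 (30.7%). Cytosolic ribosomal protein genes (70.6% and 65.9%) had higher shares, and translation initiation factor genes stood at 58.2% and 47.3%. Within 1 kb of the start the counts were 15 and 16 of 38 (18.1% and 15.3% of all genes). Of the lead MYC sites, 15 overlapped a STAT6 peak with IL4 (34.1%) and 16 with IFNg+IL4 (36.4%), while 42.8% and 35.6% of all MYC peaks after 2 h of IL4 did. Relative to MYC sites at large the share was therefore lower with IL4 and close with IFNg+IL4. Of the strongest 10% of those MYC peaks, which held 39 of the 44 lead sites, 49.5% and 43.1% overlapped a STAT6 peak.
The 21 STAT6 peaks near these genes that lay on a MYC peak after IL4 had a median percentile of 25.5 within the STAT6 list, and the 12 others 68.5. With IFNg+IL4 these were 19.2 (21 peaks) and 50.0 (11 peaks). Between the treatments 26 of 33 peaks (78.8%, 61.1 to 91.0%) and, the other way, 27 of 32 (84.4%, 67.2 to 94.7%) were kept, against 68.7% and 80.3% of all STAT6 peaks.

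The strong STAT6 sites lay away from the starts. The strongest with IL4 was 4840 bp upstream of Imp4, a U3 snoRNP protein, with 170.1 depth-scaled reads, and 148 with IFNg+IL4. In Heatr1 the site lay 16975 bp into the gene, with 163 and 131. Nop58 had a site 19132 bp from the start, inside the gene, at the percentiles 93.4 and 89.7. At Ncl it lay 251 bp past the end of the gene, 14987 bp from the start, with 162 depth-scaled reads with IL4 and 76.1 with IFNg+IL4. Rrs1 went the other way, with 59.1 and 127 at a site 535 bp outside the gene. The sites of Imp4 and Rrs1 each lay within 5 kb of 1 other protein-coding gene, and those of Ncl, Nop58 and Heatr1 of 0. Of the 44 lead MYC sites, 26 lay within 5 kb of another protein-coding gene and 13 within 1 kb of another gene's start.

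IRF1 was near few of the genes, at a share close to that of all genes. The counts were 2 of 44 in untreated cells (1.54% of all genes), 6 after IFNg (12.0%) and 10 after IFNg+IL4 (20.4%). Within 1 kb of a start they were 2 of 38 in each list (1.17%, 3.3% and 6.35% of all genes), always Nop56 and Polr1a, and both peaks overlapped the lead MYC site. At Nop56 the IRF1 summit lay 56, 72 and 52 bp upstream of the start with 53.3, 85.2 and 85.0 depth-scaled reads. At Polr1a it lay 130, 62 and 145 bp upstream, with 39.0, 51.6 and 70.0. The lead MYC site of Polr1a is also within 1 kb of the start of Ptcd3. Wdr43 had an IRF1 peak 1936 bp into the gene after IFNg and 1933 bp after IFNg+IL4, at the percentiles 91.0 and 92.2, and none in untreated cells. Ddx21 had IRF1 peaks 1530 and 1555 bp upstream after the same treatments, and none in untreated cells.

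JUNB was near 5 of 44 in untreated cells (16.7% of all genes), 3 after IFNg (13.8%) and 3 after IFNg+IL4 (11.0%). Starts had a JUNB summit within 1 kb in 2 of 38 in untreated cells (3.21% of all genes), at Ppan (129 bp upstream) and Noc2l (186 bp upstream), and in 0 of 38 after IFNg (1.74%) and IFNg+IL4 (1.37%). Both are weak, at the percentiles 7.24 and 34.7 of a list that goes down to a −log10 p of 2.03, when the lowest value in each other ChIP list is 4.54 or more.
CEBPB was near 3 of 44 in untreated cells (13.6% of all genes), 14 after IFNg (34.9%) and 3 after IFNg+IL4 (14.8%). Summits within 1 kb of a start were in 0, 3 and 0 of 38 (2.85%, 10.4% and 3.38% of all genes), the 3 being Nop14, Dkc1 and Ltv1 after IFNg, at the percentiles 2.52, 16.5 and 12.5.

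By depth-scaled reads Heatr1 carried the strongest CEBPB and JUNB sites of the group. By −log10 p the JUNB peak past the end of Polr1a was stronger in untreated cells (24.8 against 21.2, with 30.4 depth-scaled reads). CEBPB had 120.3 depth-scaled reads in untreated cells, 199.8 after IFNg and 101 after IFNg+IL4 at a site 13531 bp into the gene in untreated cells, within the strongest 2% of each list. A JUNB peak 16871 bp into the gene in untreated cells had 32.3, 77.4 and 49.8, near the STAT6 site named above, 16975 bp into the gene. For both factors IFNg alone gave the highest value. Ncl had a CEBPB peak at its 3′ end in all 3 lists, with 22.7, 58.6 and 33.5.

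Other genes of the pathway followed, at lower strength. Of 80 other ribosome biogenesis genes, listed by name, 10 had a MYC peak without treatment, 77 at 2 h and 73 at 4 h of IL4, and 45 at 2 h and 52 at 4 h of IFNg+IL4. Their median depth-scaled reads after 2 h of IL4 were 45.4, against 81.2 for the 44 genes. The 5 strongest by −log10 p were Aatf (101), Riok2 (105), Nol9 (80.3), Wdr46 (78.6) and Wdr36 (87.3). Of 85 cytosolic ribosomal protein genes, 47, 81, 81, 77 and 81 had a MYC peak in the 5 lists, with a median of 78.6 after 2 h of IL4, so they were close to the 44 genes in both count and strength. Mitochondrial ribosomal protein genes had 6, 67, 58, 26 and 32 of 78 (median 34.9), and translation initiation factor genes 13, 46, 45, 22 and 28 of 55 (median 38.4). Macrophage identity genes had 0, 10, 10, 5 and 6 of 15 and markers of other cell types 0, 3, 3, 1 and 1 of 15.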

How the data were processed

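The data were 16 ChIP lists and 1 input list, 1 library per group. The submitters' processing notes name Bowtie2 2.2.6, MACS2 2.1.0.20150731 and the build mm10/GRCm38; their settings were not given in the sources used here. The authors deposited per peak a score, a fold (ratio to the control), and −log10 p and −log10 q values. From these, peaks on chromosomes 1 to 19, X and Y without an input peak were kept. Per-peak reads and library depth were solved from fold and −log10 p (tolerance 0.002), which assumes 1 input for all lists, and were tested on simulated data. Ratios carry exact conditional binomial 95% intervals, for counting error only. Python 3.11.15, numpy 2.4.6, pandas 2.3.3 and scipy 1.17.1 were used. No p-value was computed. The genes, lists and rules were chosen with earlier results of these data known. Values per list are given for genes with an untreated MYC peak, the 15 strongest after 2 h of IL4, genes with IRF1, JUNB or CEBPB at the start, and some added after their values were seen. The E-box sites beyond the 4 nearest a summit, and those of CACGCG, were added too. Ribosomal protein genes were found by symbol, without the Rps6k kinases. Alternatives were the window, the q threshold, list length, input removal, the overlap rule and the depth of the MYC lists.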

Additional observations from a re-analysis of the deposited data

How the results depend on the processing

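Of 152 alternative values for 28 counts and shares, 119 stayed close to the value reported (a count within 1.5 times, a share within its interval) and 33 did not. No count of genes with a MYC peak was among the 33, but the rule for equal list length was not the same for MYC. The MYC lists were cut to 3034 peaks, the shortest treated list, while those of IRF1 and CEBPB were cut to their untreated lists. Cut to the 495 peaks of the untreated MYC list, the treated lists gave 25, 26, 26 and 26 genes, outside the limit of 1.5 times. These values are not among the 152. Counting only summits within 1 kb of the start gave 15 genes for STAT6 with IL4 and 16 with IFNg+IL4, 2 and 2 for IRF1 (IFNg, IFNg+IL4), 2, 0 and 0 for JUNB and 0, 3 and 0 for CEBPB (untreated, IFNg, IFNg+IL4). A window of 20 kb gave 10 and 16 for IRF1 after IFNg and IFNg+IL4, 9 for untreated JUNB, and 8 and 7 for CEBPB untreated and after IFNg+IL4. A window of 1 kb gave 6 for IRF1 after IFNg+IL4. For untreated JUNB a −log10 q of at least 5, one of at least 2, and equal list length each gave 2. Equal list length gave 0 and 0 for IRF1 after IFNg and IFNg+IL4, with 244 peaks, and 4 for CEBPB after IFNg.

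Requiring a reciprocal overlap of 50% lowered the shares of kept peaks. For MYC they were 3.85% from untreated to 2 h of IL4 and 1.47% back, where untreated peaks are narrower (median width 160 against 227 bp), 91.4% from 4 h to 2 h of IL4, 36.8% from IL4 to IFNg+IL4 at 2 h and 51.0% back, 62.1% at 4 h and 57.1% back, and 83.7% from 2 h to 4 h of IFNg+IL4 and 65.1% back. For STAT6 they were 57.6% and 59.4%. No paired analysis was possible because each group was 1 library. The shallow IFNg+IL4 libraries limit the MYC values there, which rest on a median of 17.5 and 19 reads per lead site.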
